A study of Homo sapiens with 30 samples.

Results

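Messenger RNA of LNCaP cells given 10 nM of R1881 for 24 h was compared with that of cells given vehicle, gene by gene. The comparison was chosen by its labels: 3 libraries of each group, numbered 2, 3 and 4, which are 6 of the 30 samples of the series. LNCaP is an established epithelial line of metastatic prostate cancer, and R1881 (methyltrienolone) is a synthetic androgen. The cells of both groups had been plated at 130000 per well in 8% charcoal-stripped, and so hormone-depleted, serum and kept in it for 48 h before treatment. The series also holds LNCaP libraries at 0.03, 0.06 and 0.1 nM and 15 samples of a second line, VCaP, the latter not analysed here; its stated question is how gene expression differs between low and high androgen doses. The 3 libraries at 0.1 nM serve below as the next lower dose. All groups are 1 cell line at 1 time point, and the labels do not say whether the numbered replicates are separate cultures, so p-values measure the spread between these samples, which may be technical.

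Androgens act through the androgen receptor, a hormone-activated transcription factor of the nuclear receptor family that binds DNA as a dimer at androgen response elements. In the prostate it drives the secretory programme of luminal epithelial cells, with the kallikrein proteases as its best-known products, and in prostate cancer cells it also governs growth and lipid synthesis. High concentrations of androgen are known to slow the growth of androgen-sensitive prostate cancer cells that lower concentrations stimulate.

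Total counts ran from 40396721 to 43963087 in the vehicle libraries and from 41596157 to 61199483 at 10 nM. The replicate 3 libraries of every group had more counts from mitochondrially encoded genes (9.31% to 10.7%) than the other 10 libraries (6.14% to 7.69%), and each group held 1 such library. Levels are in CPM, counts scaled to a common library size that includes the TMM factor, given as mean ± SD over 3 libraries where the libraries are not listed one by one. Of 17 luminal markers, 16 were at 1 CPM or more in vehicle and 17 at 10 nM, and their summed level was 6130 to 6311 CPM in vehicle and 16897 to 17219 CPM at 10 nM. The sum is set by its abundant members: 8 of the 17 rose, KLK3, KRT8 and KRT18 among them, and 6 fell, FOLH1 among them (median log2 0.08). Markers of other cell types were low: 3 of 10 basal, 3 of 13 neuroendocrine, 2 of 8 fibroblast and 1 of 11 leukocyte or endothelial markers reached 1 CPM in vehicle. Their summed levels went from 41.2 to 44.1 CPM in vehicle to 25.2 to 28.6 CPM at 10 nM for basal markers, from 59.7 to 66.3 to between 27.6 and 29.1 for neuroendocrine markers, from 29.3 to 40.4 to between 16.5 and 20.3 for fibroblast markers, and from 16.8 to 20.2 to between 5.20 and 7.99 for leukocyte and endothelial markers. Most of the basal sum was DST (mean 32.2 CPM in vehicle, 23.4 at 10 nM). Most of the neuroendocrine sum was ENO2 (52.6 and 18.2 CPM), and most of the fibroblast sum COL1A1 (32.6 and 18.1 CPM). Of 6 basal markers tested 2 rose and 3 fell, and of 4 neuroendocrine markers 1 rose and 2 fell. All 4 fibroblast markers tested fell, as did the 1 leukocyte or endothelial marker tested. Of all 18403 genes tested, 29.3% rose and 28.3% fell, the background of the marker counts in this paragraph. No contribution of other cells to any result was tested.

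Most genes that could be tested differed between the groups. Of 18403 genes tested, edgeR's quasi-likelihood test called 10608 (57.6%) at a Benjamini-Hochberg adjusted p under 0.05, with 5399 (29.3%) higher and 5209 (28.3%) lower at 10 nM. These shares are the background of every list count against vehicle given below with TMM factors. A change of at least 2-fold was called for 1131 genes upward (6.15%) and 1942 downward (10.6%), of at least 8-fold for 218 and 179, and of at least 64-fold for 51 and 10. The 3 libraries of each group did not overlap for 11527 genes (62.6%). The 218 genes that were at least 8-fold higher took 0.149% to 0.159% of all counts in the vehicle libraries and 2.20% to 2.38% at 10 nM, while the 179 that were at least 8-fold lower went from between 0.218% and 0.236% to between 0.0141% and 0.0162%. These shares describe the chosen genes, and no test rests on them. The split between higher and lower depended on the scaling: library totals without TMM factors shifted the median log2 change of all genes by -0.21 and called 3069 higher and 7987 lower, so that 27.8% and not 50.9% of the calls were higher. Those 3069 and 7987 of 18403 genes are the background of every list count against vehicle under library totals. Against 0.1 nM that background is 2164 higher and 5994 lower. With TMM factors, protein-coding genes were called higher in 36.1% and lower in 29.2% of 13340 cases. Long intergenic RNAs were called higher in 10.5% and lower in 32.7% of 1161 cases, and antisense RNAs in 12% and 28.5% of 1448. How strand was treated in the counting is not given in the sources used here, so a gene and its antisense partner may share reads.

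**Figure D1:**
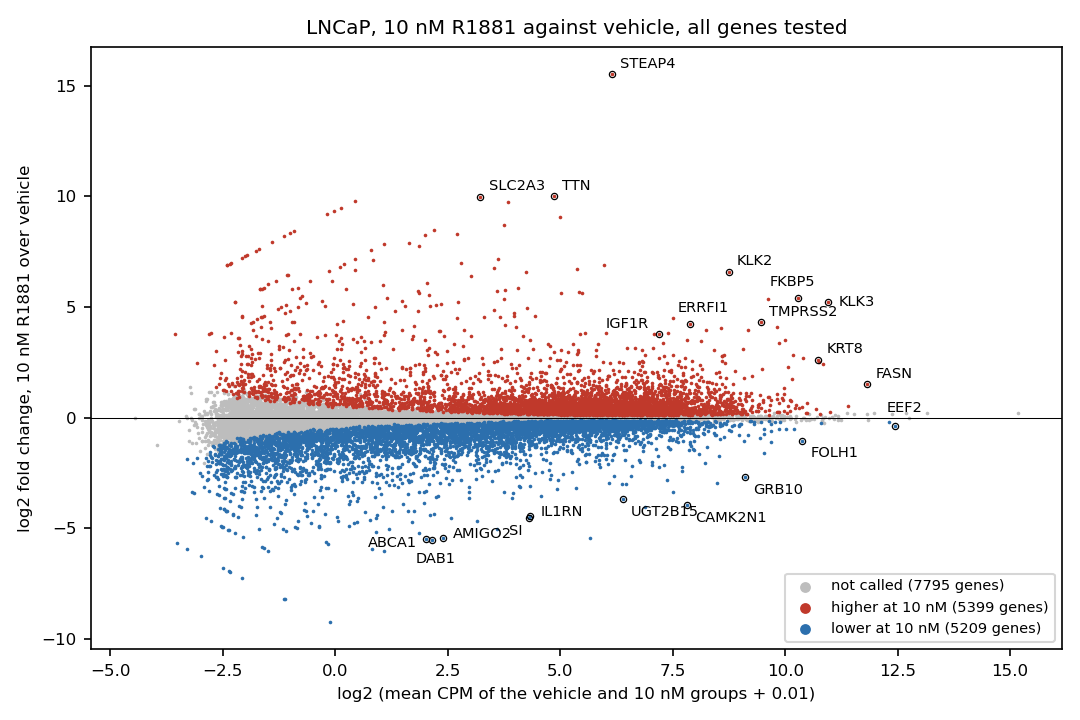
Log2 fold change of 10 nM R1881 over vehicle (vertical) against log2 of the mean CPM of these groups plus 0.01 (horizontal), 1 point for each of 18403 genes, red where called higher, blue where called lower and grey where not called. Calls are spread over the whole range of levels, with 5399 genes above and 5209 below the line; STEAP4 lies highest, at a fitted value that is no bound because its vehicle libraries hold no count.

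The classical androgen targets stood far above vehicle. KLK3, the gene of prostate-specific antigen (ENSG00000142515.15, chr19:50854915-50860764, plus strand, GRCh38), had 93.7, 107 and 107 CPM in the 3 vehicle libraries and 3901, 3900.0 and 3763 CPM at 10 nM. Every treated library was more than 30 times above every vehicle library. The fold was 37.6 (log2 5.23 ± 0.099, edgeR adjusted p = 4.31e-17). Per kilobase of exon its rank among 18115 tested genes with a position was 1922 in vehicle and 22 at 10 nM. KLK2, a neighbouring kallikrein and close paralog, went from 7.65, 9.44 and 9.23 CPM to 844, 832 and 868 CPM, a fold of 96.6 (log2 6.59 ± 0.11, adjusted p = 6.79e-18); how reads were divided between these paralogs is not known. FKBP5, a co-chaperone that binds steroid receptors, had 60.6, 55.9 and 57.7 CPM in vehicle and 2448, 2369 and 2538 CPM at 10 nM (42.2-fold). TMPRSS2, a membrane serine protease, had 60, 81.8 and 57.5 CPM and 1243, 1502 and 1262 CPM (20.1-fold). Its replicate 3 library was the highest of both groups, and the groups lay far apart.

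The promoter of KLK3 is shown because it holds an androgen response element inside the window of 250 bases before to 50 bases after the start (RefSeq, GRCh38.p14, chr19:50854665-50854964, plus strand). Capitals mark the match to the element (AGAACA, 3 bases of any kind, TGTTCT) with up to 2 mismatches, from base -170 to -156 before the start.
KLK3: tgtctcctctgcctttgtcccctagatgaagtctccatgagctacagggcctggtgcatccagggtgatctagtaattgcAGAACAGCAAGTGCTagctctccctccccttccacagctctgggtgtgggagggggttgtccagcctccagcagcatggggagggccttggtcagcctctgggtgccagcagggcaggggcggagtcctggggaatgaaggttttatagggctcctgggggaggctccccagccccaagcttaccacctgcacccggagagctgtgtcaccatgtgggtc
This element, searched on both strands, was found in 1.44% of 27305 promoters, in 0.592% of the 11984 promoters of tested genes, in 4.62% (6 of 130) of those of genes at least 8-fold higher and in 2.65% (3 of 113) of those at least 8-fold lower. Its left arm AGAACA alone, on either strand, was found in 14.9%, 9.13%, 19.2% and 15.9% of the same sets. A match is a description of these letters only.

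Of the 22 genes of a published androgen response signature, 21 rose and MED28, a Mediator subunit, fell (log2 -0.26 ± 0.058), against 29.3% and 28.3% of all genes. Their median log2 change was 3.66, that of all genes -0.01. ACSL3, which activates long-chain fatty acids and has a place in lipid droplet formation, went from 159.6, 167 and 165 to 1916, 1679.5 and 2020.0 CPM (11.4-fold), and ELL2, a transcription elongation factor, rose 10.4-fold (27.3 ± 1.68 to 283 ± 17.5 CPM). Among the kallikreins, KLK4 rose 5.76-fold (31.8 ± 6.87 to 183 ± 27.5 CPM), KLK15 rose from 0.68, 0.511 and 0.692 to 1.19, 1.46 and 1.39 CPM (log2 1.11 ± 0.27), and KLK14 was not called (log2 -0.77 ± 0.44, adjusted p = 0.143). SLC45A3, the luminal antigen prostein, went from 64.9, 73.5 and 69.9 to 1128, 1030.4 and 1114 CPM (15.7-fold), and TRPM8, a cold-sensing cation channel, from 0.704, 1.29 and 1.15 to 22.8, 27.7 and 22.7 CPM (23.2-fold).

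**Figure D2:**
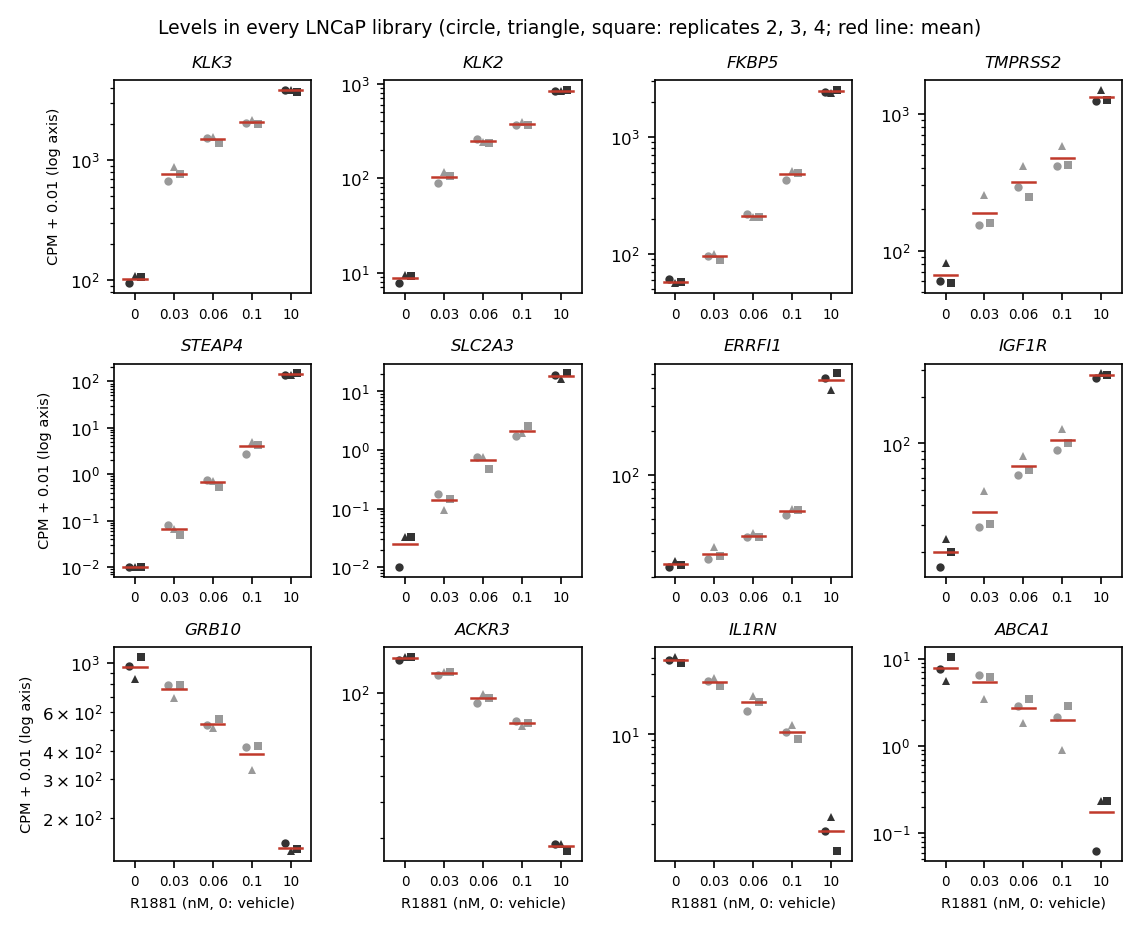
CPM plus 0.01 on a log axis in each of the 15 LNCaP libraries (circle, triangle and square for replicates 2, 3 and 4, red line for the mean) for 8 genes that rose and 4 that fell at 10 nM; the horizontal axis lists the dose in nM, with 0 for vehicle. In every panel the 3 libraries at 10 nM are beyond the 3 at 0.1 nM: KLK3 lies at 2087 ± 77.4 CPM at 0.1 nM and 3854 ± 79.6 at 10 nM, STEAP4 at 3.99 ± 1.13 and 142 ± 6.3; libraries without a count stand at 0.01.

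Some genes went from near silence to clear expression. Under 0.1 CPM in vehicle and at 1 CPM or more at 10 nM were 39 genes, of which 12 had already reached 1 CPM at 0.1 nM and 2 were still under 0.1 CPM there. STEAP4, a ferric and cupric reductase, was without any count in vehicle and had 138, 138 and 149 CPM at 10 nM. With the 3 counts that a total of 0 allows for the group, it was at least 6170-fold higher. It had 2.72, 4.9 and 4.33 CPM at 0.1 nM, so most of its level appeared between these doses (log2 5.14 ± 0.13, edgeR adjusted p = 1.48e-13). SLC2A3 encodes GLUT3, which imports glucose, and its 19.3, 16.2 and 20.3 CPM at 10 nM rest on 2411 counts, beside 2 in all of vehicle (1200-fold, with a 95% interval for counting error of 332 to 9920). The acute-phase plasma proteins ORM1 and ORM2, near-identical neighbours whose reads may be shared, had 3 counts each in vehicle and 829 and 1214 at 10 nM. PDE3A, a cyclic nucleotide phosphodiesterase, reached 6.64, 5.83 and 9.19 CPM from 0.031 ± 0.0269. Outside the 39, NPPC, the precursor of C-type natriuretic peptide, reached 22.2, 21.6 and 25 CPM (109.6-fold). PGC, the protease precursor progastricsin, also outside the 39, reached 15.7, 10.7 and 15 CPM (125-fold). F5, coagulation factor V, was outside them too, and rose from 0.422, 1.09 and 0.785 CPM to 89.7, 75.5 and 82 CPM (106-fold). SLC38A4, an amino acid transporter among the 39, reached 28, 23.8 and 34.2 CPM. TTN (titin) and CCDC141 overlap on the same strand, so the split of their reads is uncertain. CCDC141, at a mean of 0.114 CPM in vehicle, was outside the 39. Both genes had their lowest treated value in replicate 3 (64.7, 39.4 and 69.7 CPM for TTN, 70.9, 44.4 and 76.2 for CCDC141) and at most 0.162 CPM in any vehicle library. In the other direction 24 genes went from 1 CPM or more to under 0.1 CPM, and 1 of them, a ribosomal RNA, was still at a mean of 1 CPM or more at 0.1 nM. In the vehicle and 0.1 nM groups that RNA was counted almost wholly in replicate 4, with 5.4 and 3.56 CPM. At 0.06 nM it had 2.77, 4.05 and 2.81 CPM. Its vehicle and 10 nM libraries overlap. PGR, the progesterone receptor, was also among the 24, with 1.64, 2.4 and 1.92 CPM in vehicle and 0.0264, 0.148 and 0.0252 at 10 nM.

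In absolute level, the 15 largest rises of mean CPM (not per length, so not ranked between genes here) included keratins, enzymes of lipid and polyamine synthesis and the targets above. KRT8 and KRT18, the partner keratins of simple epithelium, went from 493, 464 and 479 to 2868, 2721 and 3212 CPM and from 370.1, 365 and 367 to 1689.6, 1787 and 1862 CPM. At 0.1 nM they stood at 546 ± 12.3 and 484 ± 14 CPM, and 10 nM was above 0.1 nM by log2 2.43 ± 0.063 and 1.88 ± 0.059. NCAPD3, a condensin II subunit that compacts chromosomes, went from 103, 88.8 and 106 to 1720.1, 1725 and 1696 CPM (17.3-fold, adjusted p = 1.25e-17), with libraries close together in both groups. SORD, sorbitol dehydrogenase of the polyol pathway, rose 7.19-fold to 2039.6 ± 167 CPM. ABHD2, a serine hydrolase, rose 5.77-fold to 2916 ± 38.4 CPM, and LIMCH1, an actomyosin regulator, 3.37-fold to 1743 ± 131 CPM.

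Lipid synthesis genes moved upward together. Of 27 genes of cholesterol synthesis and its SREBP control, 24 rose (median log2 0.80) and 3 fell: INSIG2 (-1.31 ± 0.066), which retains the SREBP complex in the endoplasmic reticulum, and the enzymes TM7SF2 (-0.69 ± 0.057) and HSD17B7 (-0.40 ± 0.073). HMGCS1, a synthase early in the pathway, had 89.6, 87.3 and 86.7 CPM in vehicle and 261, 269 and 288 CPM at 10 nM (3.11-fold), without overlap. SCAP, the escort of SREBP to the Golgi, went from 101, 99.8 and 101 to 327, 296 and 333 CPM (3.16-fold, adjusted p = 4.38e-14). Against 0.1 nM, 20 of the 27 were higher and 2 lower (background 20.6% and 19.5%). In fatty acid synthesis, elongation and activation 14 of 22 rose and 3 fell, against 29.3% and 28.3% of all genes. FASN, fatty acid synthase, had 1994, 1841 and 1782 CPM in vehicle and 5309.7, 5182 and 5613 CPM at 10 nM (2.87-fold). The elongases ELOVL7, ELOVL5 and ELOVL1 rose 13.7-, 4.56- and 2.12-fold. Genes of fatty acid oxidation also rose in 16 of 25 cases, with 7 lower: SLC25A20, the carnitine carrier of mitochondria, rose 2.55-fold, ECI2, an isomerase for unsaturated acids, 3.56-fold, ACOX3, a peroxisomal oxidase, 2.05-fold, and ACAA1, a peroxisomal thiolase, 2.12-fold. Of 9 genes of cholesterol efflux and liver X receptor targets 4 rose and 3 fell (median log2 -0.02; 2 and 5 under library totals), and both exporters of the ABC family in it fell. ABCA1, the main cholesterol exporter, fell from 7.72, 5.57 and 10.4 CPM to 0.0527, 0.222 and 0.227 CPM (44.6-fold lower, log2 -5.48 ± 0.48) and ABCG1, a second exporter, from 42.8 ± 5.57 to 14.2 ± 0.783 CPM (3.01-fold lower). ABCA1 was lowest in replicate 3 of vehicle and in replicate 2 at 10 nM, and the groups stayed far apart.

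Nearly all listed genes for transport between endoplasmic reticulum and Golgi rose. The list was written with earlier results of these data known. Of 34 genes for vesicle transport between endoplasmic reticulum and Golgi, 33 rose and none fell at 10 nM (median log2 0.81), and SEC23A, an inner coat protein, was not called (0.09 ± 0.062). All 34 were also higher than at 0.1 nM (median 0.62, background 20.6%). SEC24D, a cargo-binding subunit of the COPII coat, had 34.4, 34.5 and 33.5 CPM in vehicle and 153, 131 and 159 CPM at 10 nM (4.31-fold). KDELR2, the receptor that returns escaped chaperones, rose 2.6-fold, ARFGAP3, a COPI regulator, 2.19-fold, SEC24B 2.06-fold and SURF4, a cargo receptor, 2.04-fold. ARFGAP3 was still at 83.6 ± 1.72 CPM at 0.1 nM, close to its 79.6 ± 3.07 CPM in vehicle. Under library totals alone 31 of the 34 were called higher than vehicle and none lower.

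Of 33 genes for protein folding and the unfolded protein response, 30 rose and none fell (median log2 0.88). The 3 not called were ATF6 (0.12 ± 0.057), a stress sensor of the membrane, ERO1B (0.07 ± 0.11), an oxidase, and DDIT3 (-0.44 ± 0.19), the stress factor CHOP. Against 0.1 nM, 32 rose (background 20.6%) and DDIT3 was again not called. Under library totals alone 29 rose over vehicle and 1 fell. DNAJB9, a co-chaperone of BiP, had 13.5, 14 and 12.3 CPM in vehicle, 22.4, 26.2 and 22.6 CPM at 0.1 nM and 65.2, 72.7 and 71.3 CPM at 10 nM (5.26-fold over vehicle, adjusted p = 2.83e-14). PDIA5, a disulfide isomerase, rose 4.31-fold, EDEM3, which trims mannose from misfolded glycoproteins, 3.64-fold, DNAJC3, an inhibitor of the kinase PERK, 2.88-fold and ERO1A 2.77-fold. The promoters of 7 of 32 of these genes with a sequence (21.9%; CALR, CANX, CRELD2, ERO1B, HSP90B1, HSPA5 and XBP1) hold the endoplasmic reticulum stress element (CCAAT, 9 bases of any kind, CCACG) on either strand, against 0.0806% of 27305 promoters and 0.125% of 11984 promoters of tested genes. Of these 7 genes, chosen by their promoters, 6 rose by log2 0.39 to 0.98 and ERO1B was not called.

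The promoters of HSPA5, the chaperone BiP (log2 0.67 ± 0.097), HSP90B1, its partner GRP94 (0.81 ± 0.093), and XBP1, a transcription factor of this response (0.85 ± 0.081), are printed to show the element in capitals; all 3 are RefSeq windows of GRCh38.p14, 5′ to 3′ on the gene's strand (HSPA5 chr9:125241294-125241593, minus; HSP90B1 chr12:103930160-103930459, plus, with a second match in reverse; XBP1 chr22:28800520-28800819, minus).
HSPA5: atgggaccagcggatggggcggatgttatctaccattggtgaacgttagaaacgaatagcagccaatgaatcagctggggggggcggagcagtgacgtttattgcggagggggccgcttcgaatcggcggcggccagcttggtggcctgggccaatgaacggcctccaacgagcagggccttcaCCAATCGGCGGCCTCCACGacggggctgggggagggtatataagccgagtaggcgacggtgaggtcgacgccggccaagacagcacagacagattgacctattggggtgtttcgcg
HSP90B1: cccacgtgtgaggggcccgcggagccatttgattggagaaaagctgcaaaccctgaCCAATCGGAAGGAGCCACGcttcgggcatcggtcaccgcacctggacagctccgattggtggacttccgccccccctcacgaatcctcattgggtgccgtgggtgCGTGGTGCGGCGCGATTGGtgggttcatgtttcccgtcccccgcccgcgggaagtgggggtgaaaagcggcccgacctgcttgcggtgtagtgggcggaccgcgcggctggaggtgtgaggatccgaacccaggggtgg
XBP1: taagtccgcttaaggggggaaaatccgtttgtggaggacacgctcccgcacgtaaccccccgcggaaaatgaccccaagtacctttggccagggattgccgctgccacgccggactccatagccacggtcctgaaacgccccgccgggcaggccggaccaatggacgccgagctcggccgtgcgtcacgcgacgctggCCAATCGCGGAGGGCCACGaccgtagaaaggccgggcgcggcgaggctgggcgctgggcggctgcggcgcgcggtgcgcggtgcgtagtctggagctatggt
The last match of each window lies between 34 and 89 bases before the start.

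Genes that make polyamines and precursors for glycosylation rose in most cases. In hexosamine, sialic acid and polyamine synthesis 12 of 18 genes rose and 2 fell (median log2 0.98). UAP1, which makes UDP-N-acetylglucosamine, had 120.4, 128 and 129.6 CPM in vehicle and 672, 699 and 688 CPM at 10 nM (5.44-fold), and GNPNAT1, an earlier step, rose 2.29-fold. ODC1, the rate-limiting ornithine decarboxylase, rose from 336, 351 and 386 to 2162, 2079 and 2731 CPM (6.5-fold), highest in replicate 4 of both groups. SMS, spermine synthase, rose 6.89-fold and SAT1, which acetylates polyamines for export, 6.82-fold. Golgi glycosylation was divided, with 14 of 29 genes higher and 11 lower, against 29.3% and 28.3% of all genes. ST6GALNAC1, a sialyltransferase of O-glycans, rose from 1.38, 1.98 and 1.5 to 97.9, 66.4 and 87.5 CPM (51.5-fold), GCNT1, a branching enzyme, 2.42-fold and B4GALT1, a galactosyltransferase, 2.32-fold. MAN1A1, a mannosidase of N-glycan trimming, fell from 17.4, 14.7 and 19.4 to 0.58, 0.722 and 0.681 CPM (25.6-fold lower).

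**Figure D3:**
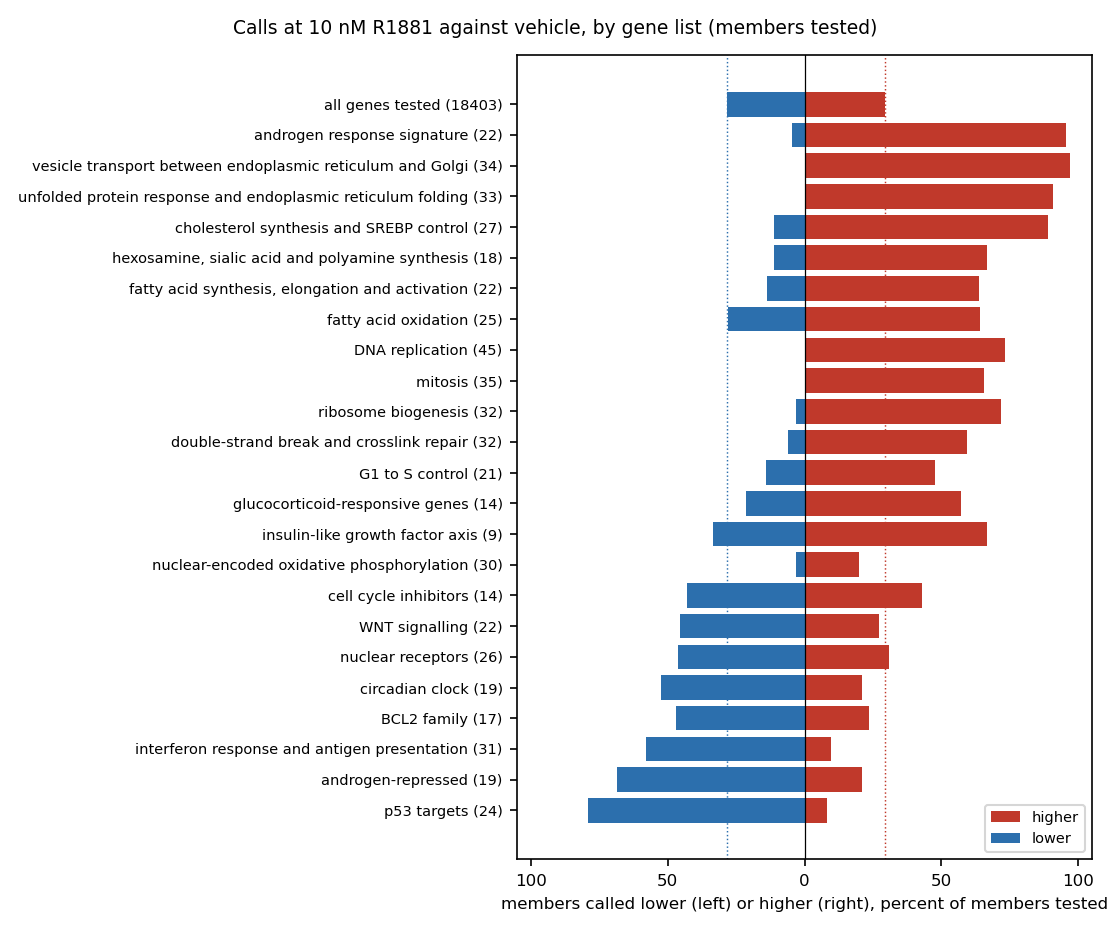
Members called higher (red, right) or lower (blue, left) at 10 nM against vehicle, as a percent of the members tested, for all genes and 23 gene lists with the number tested in brackets; dotted lines mark the shares of all genes, 29.3% and 28.3%. Secretory, lipid and replication lists lie to the right, with 33 of 34 vesicle genes higher, and p53 targets and androgen-repressed genes to the left, with 19 of 24 and 13 of 19 lower. The lists were chosen with earlier results of these data known.

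Central carbon metabolism changed at single genes more than as a group. In glucose transport and glycolysis 12 of 24 genes rose and 3 fell, but 7 rose and 9 fell under library totals alone. The hexokinases HK1 and HK2 rose 2.17- and 2.6-fold, the transporter SLC2A12 1.96-fold, and ENO2, the neuronal form of enolase, fell from 50.8, 51 and 56.1 to 16.8, 19 and 18.8 CPM (2.89-fold lower). In the tricarboxylic acid cycle 11 of 24 rose and 2 fell, which became 3 and 11 under library totals. Of all genes 29.3% rose and 28.3% fell. The share called in either direction was 54.2% for the cycle and 57.6% for all genes. IDH1, the cytosolic isocitrate dehydrogenase, rose 2.85-fold with its highest values in replicate 3 of both groups (215, 294 and 209 CPM and 620.3, 755 and 666 CPM), and OGDH, of the oxoglutarate dehydrogenase complex, 1.5-fold. Nuclear-encoded oxidative phosphorylation genes were mostly not called: 6 of 30 rose and NDUFV1 fell (-0.15 ± 0.057). Under library totals none rose and 16 fell, and without any 1 of 10 nM replicate 2, 3 or 4 or vehicle replicate 3 or 4 only 1 to 3 rose. None of the 13 mitochondrially encoded genes was called (median log2 0.16, -0.05 under library totals), with MT-CYB nearest (0.22 ± 0.099, adjusted p = 0.0652). With the replicate number as a block 4 of the 13 were called higher, and without the 5 libraries numbered 3, 6. Amino acid transporters were split, 9 of 18 higher and 7 lower, with SLC43A1, a carrier of leucine and other large neutral amino acids, up 3.41-fold, the glutamine carriers SLC38A1 and SLC38A2 up 1.59- and 2.17-fold, and the lysosomal arginine sensor SLC38A9 down 2.3-fold.

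Genes of DNA replication were above vehicle at 10 nM but below the level reached at 0.1 nM. Of 45 replication genes, 33 were higher than vehicle and none lower (median log2 0.34), while against 0.1 nM none was higher and 43 were lower (median -0.65, background 19.5% lower). The number called higher than vehicle depended on the scaling, with 16 of 45 higher and 3 lower under library totals alone. Of all 18403 genes, 3069 were higher and 7987 lower under those totals. The fall from 0.1 nM held under them, with 44 lower, where 5994 of all genes were lower. CDC6, which loads the replicative helicase, had 38.3, 30.6 and 38.2 CPM in vehicle, 111, 97.5 and 126 CPM at 0.1 nM and 79.9, 64.2 and 76.6 CPM at 10 nM. Its 3 groups did not overlap, and 10 nM lay in the middle (log2 1.04 ± 0.099 over vehicle, edgeR adjusted p = 5.93e-08; -0.60 ± 0.096 against 0.1 nM, adjusted p = 6.62e-05). MCM2, a subunit of that helicase, had 123, 99.7 and 117 CPM in vehicle, 238, 202 and 242 at 0.1 nM and 133, 102 and 119 at 10 nM, so that 10 nM overlapped vehicle and was not called against it (0.06 ± 0.095, adjusted p = 0.634). FEN1, the flap endonuclease, GINS3, of the helicase, and PRIM2, of primase, were 1.8-, 1.73- and 1.54-fold above vehicle. RRM2, the small subunit of ribonucleotide reductase, was 2.24-fold above vehicle and not called against 0.1 nM (-0.30 ± 0.12, adjusted p = 0.0635).

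The E2F factors, which switch on replication genes at the entry to S phase, bind sites such as TTTGGCGC and TTTCCCGC. On either strand, TTTGGCGC was found in 7 of 39 promoters of replication genes with a sequence (17.9%). It was found in 0.659% of 27305 promoters and in 1.03% of the 11984 promoters of tested genes. TTTCCCGC was found in 11 of 39 (28.2%), 1.66% and 2.62% of the same sets. One promoter of each kind is printed with its site in capitals (RefSeq, GRCh38.p14, on the gene's strand): CDC6, chr17:40287629-40287928, plus, and PCNA, the sliding clamp, chr20:5126573-5126872, minus, whose site reads in reverse as GCGGGAAA.
CDC6: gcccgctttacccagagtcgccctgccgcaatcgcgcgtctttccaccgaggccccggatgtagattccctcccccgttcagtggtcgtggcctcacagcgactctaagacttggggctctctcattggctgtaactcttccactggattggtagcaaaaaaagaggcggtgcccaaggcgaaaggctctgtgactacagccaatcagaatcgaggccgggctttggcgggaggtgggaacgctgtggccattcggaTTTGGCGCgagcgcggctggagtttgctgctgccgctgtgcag
PCNA: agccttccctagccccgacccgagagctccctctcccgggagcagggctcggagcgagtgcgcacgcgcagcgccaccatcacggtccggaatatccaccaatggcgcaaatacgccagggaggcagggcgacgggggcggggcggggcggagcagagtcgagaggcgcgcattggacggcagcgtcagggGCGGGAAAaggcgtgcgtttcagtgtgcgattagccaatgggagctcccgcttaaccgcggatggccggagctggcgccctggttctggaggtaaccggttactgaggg
PCNA went up by log2 0.32 ± 0.064 over vehicle and down by 0.79 ± 0.064 from 0.1 nM. E2F1 itself had 44.7, 33.7 and 41.6 CPM in vehicle, 113, 97.3 and 117 CPM at 0.1 nM and 67.3, 54.3 and 58.4 CPM at 10 nM, a rise of log2 0.58 ± 0.093 over vehicle and a fall of 0.86 ± 0.092 from 0.1 nM.

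**Figure D4:**
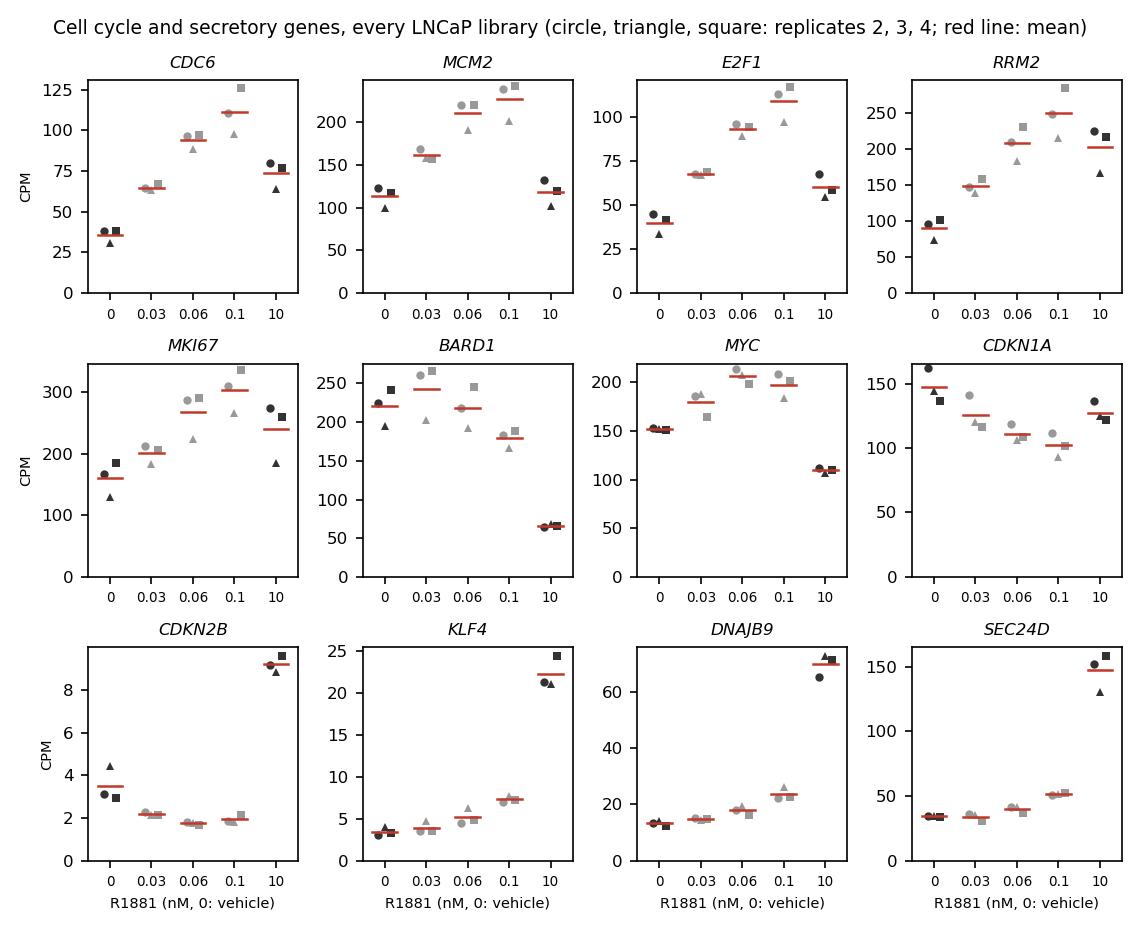
CPM on a linear axis from 0 in each of the 15 LNCaP libraries (circle, triangle and square for replicates 2, 3 and 4, red line for the mean) by dose in nM, 0 for vehicle. CDC6, MCM2 and E2F1 peak at 0.1 nM and are lower at 10 nM, MYC is lowest at 10 nM (109.9 ± 2.55 CPM), and CDKN2B, KLF4, DNAJB9 and SEC24D are highest there.

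Mitosis genes were higher than vehicle in 23 of 35 cases and lower in none, against 29.3% and 28.3% of all genes. The count of 23 was 6 under library totals alone. Against 0.1 nM 8 were lower in the main fit, near the 19.5% of all genes, and none higher. This count was 27 with the replicate block, 25 without a filter on low counts and 24 without the 5 libraries numbered 3. It was 21 under library totals, 20 without 0.1 nM replicate 3 and 18 without 10 nM replicate 2. It was 4 or 5 without 0.1 nM replicate 2 or 4 or 10 nM replicate 3. Of all 18403 genes, 3589 were lower in the main fit, 4328 with the block and 5994 under library totals. The list was thus near the background in the main fit and above it with the block. ANLN, a cytokinesis scaffold, was 1.92-fold above vehicle, AURKA, a spindle kinase, 1.57-fold and NDC80, of the kinetochore, 1.51-fold, with replicate 3 lowest of the treated libraries for all 3. MKI67, the Ki-67 proliferation marker, had 167, 129.7 and 184 CPM in vehicle and 274, 185 and 259 at 10 nM; every treated library was above every vehicle library (log2 0.58 ± 0.14, adjusted p = 0.00201), a call lost under library totals. In G1 to S control 10 of 21 were higher and 3 lower than vehicle, 7 and 7 under library totals, and 1 was higher and 14 lower than at 0.1 nM. CDK6, a G1 kinase, rose from 1.62, 2.58 and 1.98 to 14.5, 14.1 and 11.6 CPM (6.49-fold) and was the 1 gene still rising from 0.1 nM (0.76 ± 0.17). CDK2 and the phosphatase CDC25A were 1.83- and 1.98-fold above vehicle. CCND1, cyclin D1, did not pass the test (405, 415 and 393 and 404, 460.5 and 410.2 CPM, log2 0.07 ± 0.07, adjusted p = 0.4).

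Double-strand break and crosslink repair genes were higher than vehicle in 19 of 32 cases and lower in 2, ATM (-0.30 ± 0.075), the damage-signalling kinase, and BARD1; under library totals 9 were higher and 6 lower. Against 0.1 nM 2 were higher and 23 lower, where 20.6% of all genes were higher and 19.5% lower. Against vehicle 29.3% of all genes were higher and 28.3% lower, the background of each list in this paragraph. BARD1, a ubiquitin ligase subunit of homologous recombination, fell from 225, 195 and 241 to 64.9, 67.8 and 65.3 CPM (3.34-fold lower, adjusted p = 1.07e-10). XRCC5, the Ku80 end-binding protein, rose 1.42-fold and LIG4, the end-joining ligase, 1.58-fold, and LIG4 also rose from 0.1 nM (0.82 ± 0.083). Ribosome biogenesis genes were higher than vehicle in 23 of 32 cases and lower for WDR12 (-0.26 ± 0.055), with 11 higher and 6 lower under library totals; NOP16 rose 1.65-fold and UTP15 1.61-fold. Translation elongation factors were among the largest falls in CPM: EEF2 went from 5934, 6701 and 6229 to 4583, 5049.9 and 4655 CPM (log2 -0.40 ± 0.08), EEF1A2 from 1409, 1375 and 1342 to 994, 975 and 896 CPM (-0.53 ± 0.062), and EEF1A1 from 5069.8, 5832 and 5204 to 4674, 4891 and 4616 CPM (-0.18 ± 0.074, adjusted p = 0.0424), whose call was lost without vehicle replicate 3 (log2 -0.13), without 10 nM replicate 2 (-0.19) or without 10 nM replicate 4 (-0.18).

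Growth inhibitors and the MYC network changed in both directions. MYC, a growth-promoting transcription factor, had 153, 152 and 151 CPM in vehicle, 209, 183 and 201 CPM at 0.1 nM and 112, 107 and 110.3 CPM at 10 nM, the lowest of the 3 groups with no overlap (log2 -0.47 ± 0.058 against vehicle, -0.85 ± 0.058 against 0.1 nM, adjusted p = 2.97e-09). Its antagonist MXD1 rose 1.48-fold, and a second antagonist, MXI1, was 1.85-fold lower. Among 14 cell cycle inhibitors 6 rose and 6 fell, against 29.3% and 28.3% of all genes. CDKN2B, the CDK4 and CDK6 inhibitor p15, had 3.12, 4.42 and 2.95 CPM in vehicle, 1.86, 1.83 and 2.14 CPM at 0.1 nM and 9.15, 8.83 and 9.59 CPM at 10 nM, so it was lower at 0.1 nM than in vehicle in every library and highest at 10 nM (log2 1.39 ± 0.13 over vehicle, 2.25 ± 0.14 over 0.1 nM). KLF4, a differentiation factor, rose from 3.07, 4.02 and 3.3 to 21.3, 21.1 and 24.4 CPM (6.41-fold). BTG2, CCNG2 and TXNIP, which restrain growth in quiescent cells, were 2.47-, 2.86- and 2.7-fold lower. CDKN1A, the inhibitor p21, had 162, 144 and 137 CPM in vehicle and 136, 125 and 122 at 10 nM (log2 -0.21 ± 0.083, edgeR adjusted p = 0.0379); this call was lost with RLE factors and DESeq2 (-0.20 in both), without vehicle replicate 2 (-0.14), without 10 nM replicate 3 (-0.21) or 4 (-0.19) and without the libraries numbered 3 (-0.22), and the nearest libraries of the groups stood at 136 and 137 CPM. Against 0.1 nM CDKN1A was higher (0.32 ± 0.084, adjusted p = 0.00484).

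**Figure D5:**
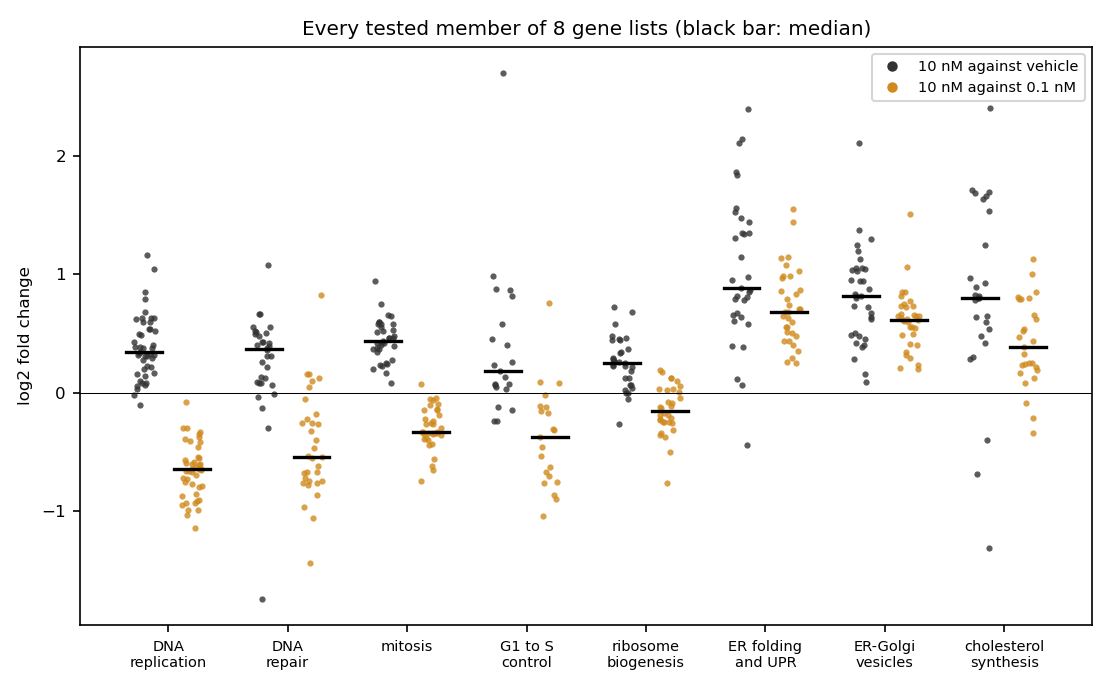
Log2 fold change of every tested member of 8 gene lists, 10 nM against vehicle (black points) and against 0.1 nM (orange points), with a black bar at each median; points are spread sideways at random. Replication genes have their median above 0 against vehicle (0.34) and below 0 against 0.1 nM (-0.65), while folding (UPR) and vesicle genes of the endoplasmic reticulum (ER) have it above 0 in both; the comparisons share the 10 nM libraries.

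Among genes with a symbol, at least 5 CPM in 1 of the groups and no overlap of libraries, the largest falls on the log2 scale were led by DAB1. DAB1, an adaptor of reelin signalling, went from 6.01, 11.4 and 8.52 to 0.0791, 0.259 and 0.177 CPM (47-fold lower), AMIGO2, an adhesion molecule, from 9.88, 10.7 and 10 to 0.185, 0.241 and 0.278 CPM (42.9-fold) and OPRK1, the kappa opioid receptor, from 89.6, 102 and 106 to 1.45, 2.89 and 2.4 CPM (43.1-fold). PLD1, a phospholipase, was 36.7-fold lower, SI, the brush-border enzyme sucrase-isomaltase, 23.3-fold, IL1RN, the interleukin-1 receptor antagonist, 21.5-fold and SLC30A10, a manganese exporter, 20.5-fold. The lack of overlap was a condition of this ranking and is no result. Among genes with large falls in CPM were FOLH1, prostate-specific membrane antigen, which went from 1783, 1858 and 1756 to 834, 958 and 816 CPM (2.07-fold lower), GRB10, an adaptor that dampens insulin receptor signalling, from 967, 848 and 1061 to 155, 143 and 146 CPM (6.48-fold lower), SELENBP1, a selenium-binding methanethiol oxidase, 3.06-fold lower, and GASK1B 7.64-fold lower. ADGRG6, an adhesion G protein-coupled receptor, was 2.18-fold lower and NFIX, a transcription factor, 1.44-fold lower.

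Of 19 genes listed as androgen-repressed, 13 fell, and UGT2B11, UGT2B28, CXCR4 and SLC16A6 rose. Of all genes 28.3% fell and 29.3% rose. The list was written with earlier results of these data known, so its count is no independent result. CAMK2N1, an inhibitor of CaM kinase II, went from 422, 433 and 414 to 24.3, 36.6 and 20.8 CPM (15.4-fold lower) and ACKR3, a scavenging chemokine receptor, from 144, 148 and 149 to 18.7, 18.8 and 17.4 CPM (8.04-fold lower, adjusted p = 1.55e-17). SLC16A6, a monocarboxylate transporter, rose from 5.11, 6.97 and 6.62 to 82.1, 89.4 and 92.7 CPM (14.1-fold). The UGT2B enzymes couple androgens to glucuronic acid for removal, and they parted. UGT2B15 and UGT2B17 fell to 18.7, 4.61 and 13.6 CPM from 234, 54.6 and 177, and to 28.9, 11.2 and 19.3 CPM from 209.9, 79.8 and 179, with replicate 3 lowest in both groups for both genes. UGT2B28 rose from 0.586, 0.222 and 0.531 to 30.6, 9.92 and 30.7 CPM (52.9-fold), again with replicate 3 lowest. These paralogs are alike in sequence, and how reads were shared out is not known. HSD17B2, which inactivates testosterone, rose 118-fold, from 1 count in all of vehicle to 119 (95% interval for counting error 20.9 to 4720), and SRD5A1, a 5-alpha-reductase, rose 1.47-fold.

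Of 20 coregulators and pioneer factors of the receptor 7 rose and 8 fell, against 29.3% and 28.3% of all genes, and 4 rose and 11 fell under library totals. FOXA1, the pioneer factor that opens chromatin for the receptor, was not called (513, 494 and 542 and 554, 529 and 552 CPM, log2 0.08 ± 0.049, adjusted p = 0.182). HOXB13 fell 1.32-fold and GATA2 1.79-fold, and PIAS1, a SUMO ligase, rose 2.41-fold and NCOR1, a corepressor, 1.43-fold. Of 26 nuclear receptors 8 rose and 12 fell (against 29.3% and 28.3% of all genes), 4 and 17 under library totals. PGR fell as given above, NR3C1, the glucocorticoid receptor, went from 0.68, 1.04 and 0.6 to 0.0527, 0.204 and 0.177 CPM (5.08-fold lower) and RARG was 1.94-fold lower. NR4A1, an immediate-early orphan receptor, rose from 9.95, 9.79 and 8.79 to 72.5, 76.2 and 75.3 CPM (7.85-fold). The thyroid hormone receptors diverged, THRB 2.1-fold higher and THRA 1.76-fold lower. Genes known for their response to glucocorticoids rose in 8 of 14 cases and fell in 3, and FKBP5 belongs to this list too: ERRFI1, a feedback inhibitor of EGFR, rose from 23.3, 25.6 and 24.1 to 465, 384 and 501 CPM (18.5-fold), ZBTB16, a zinc finger repressor, 4.4-fold, PER1 4.56-fold, TIPARP, a mono-ADP-ribosyltransferase, 5.08-fold and NFKBIA, the inhibitor of NF-kappaB, 3.09-fold.

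Growth factor receptors changed in both directions. In the insulin-like growth factor axis 6 of 9 genes rose and 3 fell. Of all genes 29.3% rose and 28.3% fell, the background of each list in this paragraph. IGF1R, the receptor, had 15.9, 24.1 and 20 CPM in vehicle and 263, 283 and 278 CPM at 10 nM (13.7-fold), IRS2, a docking protein behind it, rose from 3.35, 4.22 and 3.16 to 27.5, 32.3 and 28.1 CPM (8.18-fold), and the ligand IGF1 from 2.74, 1.73 and 1.94 to 9.07, 6.42 and 8.76 CPM (3.77-fold). Of the binding proteins, IGFBP3 rose 2.81-fold and IGFBP2 was 1.47-fold lower. Among 22 genes of ERBB receptors and growth factor signalling 10 rose and 8 fell (6 and 10 under library totals): EGFR rose from 66.9, 74.8 and 74.5 to 191, 197 and 188 CPM (2.66-fold) and ERBB2 fell from 342, 312 and 356 to 171, 155 and 166 CPM (2.05-fold lower). FGFR3 rose 4.54-fold. Of 15 ETS factors 8 rose and 4 fell (4 and 5 under library totals); SPDEF, the factor of luminal and secretory epithelium, rose from 69.9, 68.4 and 74.9 to 419, 393 and 445 CPM (5.89-fold), ELK4 2.71-fold and ETV1 1.64-fold, and ELF3 and ETV6 were 1.79- and 1.89-fold lower.

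In WNT signalling 6 of 22 genes rose and 10 fell, against 29.3% and 28.3% of all genes. The receptor FZD5 rose from 21.7, 26.4 and 24.6 to 200.1, 185 and 218 CPM (8.29-fold) and the ligand WNT7B from 37.7, 36.9 and 38.1 to 143, 132 and 129 CPM (3.59-fold), while ROR2, a noncanonical receptor, fell from 3.47, 3.11 and 4.08 to 0.185, 0.167 and 0.101 CPM (23-fold lower) and RNF43, a ligase that removes frizzled receptors, was 3.46-fold lower. In TGF-beta and BMP signalling 10 of 26 rose and 8 fell, against 29.3% and 28.3% of all genes (6 and 11 under library totals): the receptor BMPR1A rose 3.54-fold and ID2, a BMP target, 2.44-fold, and SMAD3, the transducer of TGF-beta, fell from 23.9, 25.2 and 26.3 to 6.88, 7.24 and 6.89 CPM (3.59-fold lower, adjusted p = 8.03e-14). Of 27 integrins, laminins and collagens 9 rose and 12 fell, with the same background. ITGAV rose 2.95-fold and the laminin chain LAMC1 3.7-fold; ITGB4 was 4.37-fold and ITGA2 2.63-fold lower, and COL5A2, a fibrillar collagen chain, fell from 22.1, 28.1 and 23.7 to 2.16, 2.87 and 1.99 CPM (10.4-fold lower).

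Targets of p53 were mostly lower, where 28.3% of all genes fell and 29.3% rose. Of 24, 19 fell and 2 rose, TNFRSF10B, the death receptor DR5 (168, 142 and 161 to 489.6, 448 and 497 CPM, 3.05-fold), and AEN, a nuclease (log2 0.32 ± 0.069); the median log2 change was -0.63. BBC3, the death inducer PUMA, went from 10.4, 10.8 and 10.4 to 4.14, 3.13 and 3.38 CPM (2.98-fold lower), SESN1, a stress-induced regulator of mTORC1, was 2.21-fold and FDXR, a mitochondrial reductase, 1.98-fold lower. BBC3 also counts in the BCL2 family, where 4 of 17 genes rose and 8 fell; 1 rose under library totals, and 2 rose without 10 nM replicate 2. BCL2L1, the survival factor BCL-XL, rose from 128, 114 and 121 to 212, 204 and 215 CPM (1.74-fold), and the death-promoting BMF, HRK and BID fell, BMF from 42.6, 30.1 and 37 to 6.8, 6.31 and 6.38 CPM (5.63-fold lower), HRK 8.66-fold and BID 2.24-fold.

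Interferon-response and antigen-presentation genes fell in 18 of 31 cases (median log2 -0.35), with B2M, ISG20 (0.48 ± 0.091) and IRF7 (0.23 ± 0.081) higher. B2M, the light chain of class I molecules, rose from 135, 150.2 and 134 to 420.3, 458 and 443 CPM (3.16-fold), and HLA-E, a nonclassical class I heavy chain, was 1.65-fold lower. NLRC5, the transactivator of class I genes, fell from 3.8, 4.33 and 3.32 to 0.633, 0.777 and 0.454 CPM (6.01-fold lower), and IRF1 was 2.85-fold lower. Of 19 circadian clock genes 4 rose and 10 fell, against 29.3% and 28.3% of all genes. PER1 rose from 12.2, 11.5 and 11 to 56.7, 45.8 and 56 CPM, while PER3, NR1D2, DBP and TEF, output and repressor genes of the clock, were 1.81-, 1.7-, 2.21- and 1.75-fold lower. Zinc handling, prominent in prostate epithelium, changed at importers and exporters: SLC39A10, an importer, rose 3.55-fold, SLC39A7, which releases zinc from the endoplasmic reticulum, 2.34-fold and SLC30A7, which loads the Golgi, 2.28-fold, and SLC30A4 was 1.7-fold lower. Of 26 autophagy and lysosome genes 9 were higher and 4 lower than vehicle (2 and 12 under library totals), and 16 were higher and 1 lower than at 0.1 nM (median log2 0.23, background 20.6% and 19.5%; 6 and 2 under library totals). WIPI1, an effector of early autophagosome formation, rose from 5.11, 3.86 and 4.32 to 37, 37.6 and 38.8 CPM (8.53-fold). Of 22 polycomb and DNA methylation genes 7 rose and 8 fell, near the shares of all genes (29.3% and 28.3%), and none rose under library totals; the demethylating dioxygenases TET1 and TET2 were 2.21- and 1.51-fold lower.

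The step from 0.1 nM to 10 nM alone called 7376 genes (40.1%), 3787 higher (20.6%) and 3589 lower (19.5%), and a change of 2-fold or more was called for 526 upward (2.86%) and 724 downward (3.93%). Under library totals 2164 were higher and 5994 lower, 26.5% of calls against 51.3%, with a shift of the median of all genes by -0.15. Under the same conditions (at least 5 CPM at 0.1 or 10 nM), the 6 largest rises included, with STEAP4, UGT2B28 and ORM1, those of NBL1, a secreted BMP antagonist, from 0.356, 0.457 and 0.356 CPM at 0.1 nM to 7.57, 7.37 and 9.26 at 10 nM (log2 4.34 ± 0.21), and RUNX1, a transcription factor best known from blood formation, from 1.43, 1.33 and 0.891 to 14.9, 10.9 and 14.8 CPM (3.45 ± 0.17). RUNX1 stood at 0.844, 0.933 and 0.785 CPM in vehicle, so nearly all of its rise lay between 0.1 and 10 nM. ERRFI1 rose by 2.99 ± 0.087 in this step and NCAPD3 by 2.72 ± 0.065. The 6 largest falls under these conditions were in OPRK1 (-2.91 ± 0.16), IL1RN (-2.57 ± 0.16), CAMK2N1 (-2.36 ± 0.14), SI (-2.35 ± 0.18), SLITRK3 and LRRN1, both transmembrane proteins of neurons with leucine-rich repeats (-2.14 ± 0.17 and -2.11 ± 0.16). TRPM8, far above vehicle, was lower at 10 nM than at 0.1 nM (27.5, 37.9 and 34.4 against 22.8, 27.7 and 22.7 CPM, log2 -0.45 ± 0.16, edgeR adjusted p = 0.035).

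Several of the strongest changes lay in neighbouring tested genes of a chromosome, where untested genes between them were skipped. There were 30 runs of 3 or more neighbouring tested genes that were all called in 1 direction and changed at least 4-fold. Such changes were called for 422 genes upward and 567 downward, and the number of runs expected among them was not computed. The genes named here for the first time were chosen after their values were seen. At chr19:50854915-50910738 KLK3, KLK2, the pseudogene KLKP1 and KLK4 rose by log2 2.06 to 6.59. On chromosome 4, UGT2B17 and UGT2B15 with a pseudogene fell (chr4:68509441-68670628), and UGT2B11 and UGT2B28 with 2 pseudogenes rose (chr4:69199951-69423164). At chr3:164978898-166844956 SI, SLITRK3, BCHE, the cholinesterase of plasma, and 3 noncoding neighbours fell by log2 2.65 to 5.16. At chr7:27181510-27329534 the homeobox genes HOXA11, HOXA13 and EVX1, with an antisense RNA and a pseudogene, fell by log2 3.17 to 5.69. At chr12:52468516-52952901 KRT8 and KRT18 rose beside KRT6C, and at chr7:38239580-38378804 4 transcripts of the T-cell receptor gamma locus, TRGC1 and TRGC2 among them, rose by log2 4.45 to 6.43. Paralogs and overlapping transcripts in these runs may share reads.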

How the data were processed

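RNA-seq counts of 15 LNCaP libraries were used, 3 for each of 5 doses. The authors deposited whole-number counts per gene without normalization. The submitters' processing notes name Trimmomatic 0.39, STAR 2.7.8a, DESeq2 1.36.0 and GRCh38; libraries came from a stranded mRNA kit, per the labels' protocols. The counting tool, annotation release and strand setting are not given in the sources used here, so 56 genes named by the rule below share bases with another gene on the same strand and 132 with one on the opposite strand. The table holds 37843 genes. A further 15 columns of per-sample values, of the second cell line, matched no label and were not used.

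All 15 libraries were fitted with edgeR 4.0.16 (R 4.3.3) by a two-sided quasi-likelihood test with 1 mean per group, TMM factors and edgeR's default filter on low counts by group, and p-values were Benjamini-Hochberg adjusted over 18403 genes. The printed adjusted p-values come from this test and the call threshold is 0.05. The standard error of a log2 change is its size over the root of the F statistic. The test was tried on simulated counts with known changes. Same-numbered libraries deviated together from their group means (correlations over genes 0.347, 0.507 and 0.185 with vehicle, 0.449, 0.620 and 0.296 with 0.1 nM). Replicates 2 and 4 also correlated with each other across groups (0.164 and 0.101 with vehicle, 0.237 and 0.102 with 0.1 nM). Replicate 3 correlated negatively with both. The main test ignores the replicate number, which enters as a block in an alternative only. The labels name no source of this pattern.

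Named genes are the 15 largest rises and falls by log2 change and by CPM difference (with a symbol, at least 5 CPM in 1 group, called, no overlap of libraries), the 6 largest against 0.1 nM, the 5 members of smallest p in each of 48 lists, and 20 androgen-related genes. Exceptions that complete a list's count and genes of the printed promoters were named after their values were seen. The members and lists were chosen with earlier results of these data known. Some genes that the rule names are not reported here. Positions are from GENCODE 29, and promoters from RefSeq. Alternatives were DESeq2 1.42.0, RLE factors, library totals alone, no filter, a stricter filter (a mean count of 20 and at least 1 CPM in 3 libraries), the replicate block, only the libraries compared, and each replicate left out; leaving out the 5 libraries numbered 3 was added after seeing the data. Intervals cover counting error only, since reads are not independent molecules.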

Additional observations from a re-analysis of the deposited data

How the results depend on the processing

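The number of genes called against vehicle lay between 9372 (stricter filter) and 11598 (replicate block) under every alternative run, and against 0.1 nM between 6282 and 8747. Leaving out 1 replicate at a time gave 9600 to 10063 calls against vehicle (4796 to 5133 higher, 4781 to 5023 lower) and 6282 to 6899 against 0.1 nM (3143 to 3562 higher, 3069 to 3406 lower). With the replicate number as a block, 11598 and 8747 genes were called; it ended no call of a named gene. DESeq2 called 10296 and 7130. Without the 5 libraries numbered 3, chosen after seeing the data, 10257 and 7199 were called.

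Library totals alone, which leave out the TMM factors, moved the split most, to 3069 higher and 7987 lower against vehicle and 2164 and 5994 against 0.1 nM; the cause was not tested. Under them the small fitted log2 changes of 5 named genes turned from positive to negative. They became -0.0116 for ATG4B, -0.0850 for ATP5F1C, -0.0854 for ATP5PB, -0.138 for CCND1 and -0.0561 for UQCRFS1. These are turns of sign, and CCND1 was not called with TMM factors either. Of 288 values of named genes, 262 kept their direction and side of the threshold under every alternative that gave them. Small changes of the order of the scaling shift, and genes near the lowest counts, are limited by these choices and by 3 libraries a group.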
